A study of Mus musculus with 12 samples.

Results

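Pdgfra, Pi16, Lum, Dcn, Dpp4, Cd34, Ly6a, Cd55, Dlk1 and Zfp423 are 10 genes in common use as markers of adipocyte progenitors and fibroblasts. Their levels were followed in brown adipose tissue, a thermogenic fat, of obese ob/ob mice, which lack leptin. Every probe set that the platform's probe table assigns to exactly 1 of them was taken, whatever its level. This gave 19 probe sets of 9 genes, among 45037 probe sets tested. The table lists none for Ly6a, which was therefore not analysed here. The 6 treated animals were male ob/ob mice aged 3 months, given 1 intraperitoneal dose of 1 mg/kg of an agonistic anti-FGFR1 antibody, which activates FGF receptor 1. The 6 animals they were compared with were pair-fed male ob/ob mice of the same age that received control IgG, whose dose the labels do not state. Tissue was taken on day 4 in both groups, on normal chow, and 1 array was run per mouse. All 12 mice therefore lack working leptin, and the antibody was given to the whole animal, not to brown fat alone.

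The stroma of fat holds fibroblast-like cells from which new adipocytes arise. In mouse fat, cells that carry PDGFRA, the alpha receptor for platelet-derived growth factor, include an early interstitial population marked by DPP4 and PI16. That population can give rise to committed preadipocytes, which carry ICAM1 and turn on the adipocyte regulator PPARG. FGFR1 is itself expressed by cells of this lineage. Decorin and lumican, the products of Dcn and Lum, are small leucine-rich proteoglycans that fibroblasts place on collagen fibrils.

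The values were log2 expression as deposited, ranging from 3.16 to 14.9 with array medians between 7.19 and 7.23. The tissue label was borne out by the brown fat gene Ucp1, which encodes the uncoupling protein of heat production. It lay at 14.49 to 14.61 in anti-FGFR1 mice and 14.48 to 14.59 in control IgG mice. Skeletal muscle markers varied most among lists of other cell types, with list means of 7.07 to 11.7 on the anti-FGFR1 arrays and 9.67 to 11.9 on the control IgG arrays. The array lowest in these markers was replicate 5 among anti-FGFR1 mice and replicate 6 among control IgG mice. A control measure of RNA integrity also differed. The 5' minus 3' log2 difference of the Actb and Gapdh control probe sets was -0.203 ± 0.027 in anti-FGFR1 mice and -0.161 ± 0.031 in control IgG mice (SD, n = 6 each, two-sided exact permutation p = 0.0368). Leaving out 1 array took this p above 0.05 in 9 of 12 cases, to at most 0.0736, and its part in the results below was tested only as a covariate.

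The markers did not move together. Lum and Pdgfra were higher after anti-FGFR1, by 1.69-fold and 1.54-fold on their brightest probe sets, Pi16 was 1.42-fold lower, and the other 6 genes had no probe set that passed the test. In probe sets, 2 were called higher, 1 lower and 16 not called (limma, Benjamini-Hochberg adjusted p under 0.05 over all 45037). Over all probe sets 1.66% were called higher and 3.66% lower, 5.32% in all. At an unadjusted p under 0.05 there were 6 of the 19, and 19.3% of all probe sets. The median log2 fold change of the 19 was 0.06, against 0.01 over all probe sets tested. In bulk tissue, a change in the number of cells that carry a transcript and a change of its level per cell cannot be told apart.

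**Figure D1:**
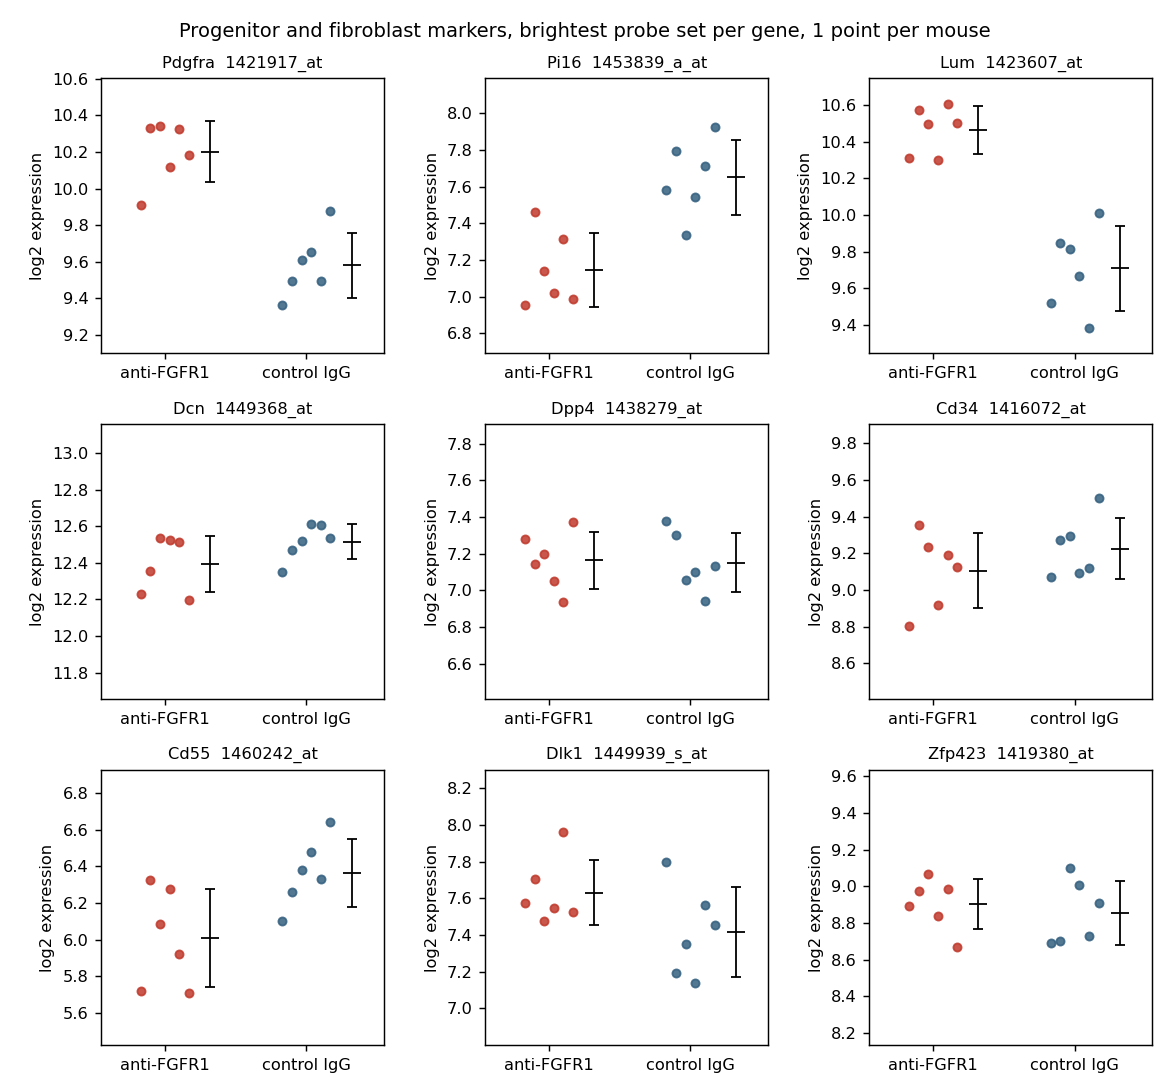
Log2 expression (vertical axes, each spanning 1.5 units) of the brightest probe set of each of the 9 genes, with 1 point per mouse, anti-FGFR1 left and control IgG right, and bars for the mean and SD of 6 mice. Pdgfra and Lum separate the groups without overlap, Pi16 is lower on 5 of 6 anti-FGFR1 arrays than on every control IgG array, and Dcn, Dpp4, Cd34 and Zfp423 overlap widely.

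Lum, which encodes lumican, had the largest difference of the 19 probe sets. Its single probe set, 1423607_at, had a lowest, median and highest value of 10.30, 10.50 and 10.60 in anti-FGFR1 mice, against 9.39, 9.74 and 10.01 in control IgG mice. No control IgG array reached the lowest of the 6 anti-FGFR1 arrays. The log2 fold change was 0.76 ± 0.10 (SE, limma adjusted p = 0.00030), with a 95% interval of 0.55 to 0.96. Groups that do not overlap were seen for 2 of the 19 probe sets, those of Lum and the brightest of Pdgfra, and for 3.9% of all probe sets.

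Dcn, the proteoglycan most closely allied to lumican in this set, was not called. Its bright probe set 1449368_at had a lowest, median and highest value of 12.20, 12.43 and 12.54 in anti-FGFR1 mice, against 12.35, 12.53 and 12.61 in control IgG mice. The groups overlapped, with anti-FGFR1 replicates 1 and 6 lowest of all 12 arrays. The log2 fold change was -0.12 ± 0.07 (SE, limma adjusted p = 0.373), and its 95% interval of -0.27 to 0.03 leaves out a rise of the size seen for Lum. The second probe set of Dcn, 1441506_at, was dim and differed by 0.11 ± 0.07 (SE, limma adjusted p = 0.384).

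Pdgfra, the receptor that defines the progenitor pool in mouse fat, was represented by 3 probe sets that differed in size of change. On the brightest, 1421917_at, the lowest, median and highest value was 9.91, 10.25 and 10.34 in anti-FGFR1 mice, against 9.36, 9.55 and 9.87 in control IgG mice. Every anti-FGFR1 array lay above every control IgG array, the closest being anti-FGFR1 replicate 1 and control IgG replicate 6. The log2 fold change was 0.62 ± 0.09 (SE, limma adjusted p = 0.00082), with a 95% interval of 0.43 to 0.81. The middle probe set, 1421916_at, had 7.29, 7.42 and 7.57 in anti-FGFR1 mice, against 6.77, 7.14 and 7.33 in control IgG mice. Here 5 of 6 anti-FGFR1 arrays were above all controls, with a log2 fold change of 0.32 ± 0.09 (SE) that just missed the threshold (limma adjusted p = 0.0585). In limma it passed with the RNA integrity measure as a covariate (0.51, adjusted p = 0.0152) and after a filter on dim probe sets (adjusted p = 0.0372). With the replicate block it passed as well (limma adjusted p = 0.0332), although same-numbered mice share only a number. Without control IgG replicate 3 or 4 it also passed (limma adjusted p = 0.0399 and 0.0395). It was further from passing when the macrophage marker mean entered the model (0.21, limma adjusted p = 0.226) and without the 2 arrays lowest in muscle markers (limma adjusted p = 0.094). The dimmest, 1438946_at, overlapped, with 1 anti-FGFR1 array just above all controls, and differed by 0.09 ± 0.09 (SE, limma adjusted p = 0.656). As the mean of its 3 probe sets, Pdgfra rose by 0.34 ± 0.06 (SE, limma adjusted p = 0.0044).

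The 3 probe sets of Pdgfra were set against each other within each array, in a limma fit of the difference between the brightest and each other probe set over all 16752 such pairs of the platform, of which 1.99% were called. The brightest rose more than the dimmest, by 0.54 ± 0.11 on the log2 scale (SE, limma adjusted p = 0.0224). This call was lost without anti-FGFR1 replicate 3, 4 or 5, with adjusted p between 0.0506 and 0.0529. Against the middle probe set the difference was 0.30 ± 0.10 (SE, limma adjusted p = 0.143). No source used here gives the stretch of transcript that each probe set reads.

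Pi16, which encodes peptidase inhibitor 16 and marks the early interstitial population together with Dpp4, fell. Its brighter probe set, 1453839_a_at, had a lowest, median and highest value of 6.96, 7.08 and 7.46 in anti-FGFR1 mice, against 7.34, 7.65 and 7.93 in control IgG mice. Of the anti-FGFR1 arrays, 5 of 6 were below every control IgG array and replicate 2 reached into their range. The log2 fold change was -0.50 ± 0.10 (SE, limma adjusted p = 0.0093), with a 95% interval of -0.72 to -0.29. The signal was not bright, its mean lying close to the median of all probe sets, 7.20.

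The second probe set of Pi16, 1422026_at, did not follow. It lay at 5.31 to 5.48 in anti-FGFR1 mice and 5.16 to 5.58 in control IgG mice, and its difference of 0.06 ± 0.07 was not called (SE, limma adjusted p = 0.718). The mean of both probe sets fell by 0.22 ± 0.06 on the log2 scale (SE, adjusted p = 0.046 in limma). The brighter probe set changed by -0.56 ± 0.12 relative to this one within arrays (SE, limma adjusted p = 0.0281). That call did not survive leaving out any 1 of 6 arrays (anti-FGFR1 replicates 1, 3, 4 and 6, control IgG replicates 2 and 6), with adjusted p up to 0.0664. The fall of the brighter probe set itself was called in each of the 12 fits that left out 1 array, with log2 fold changes of -0.57 to -0.45.

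**Figure D2:**
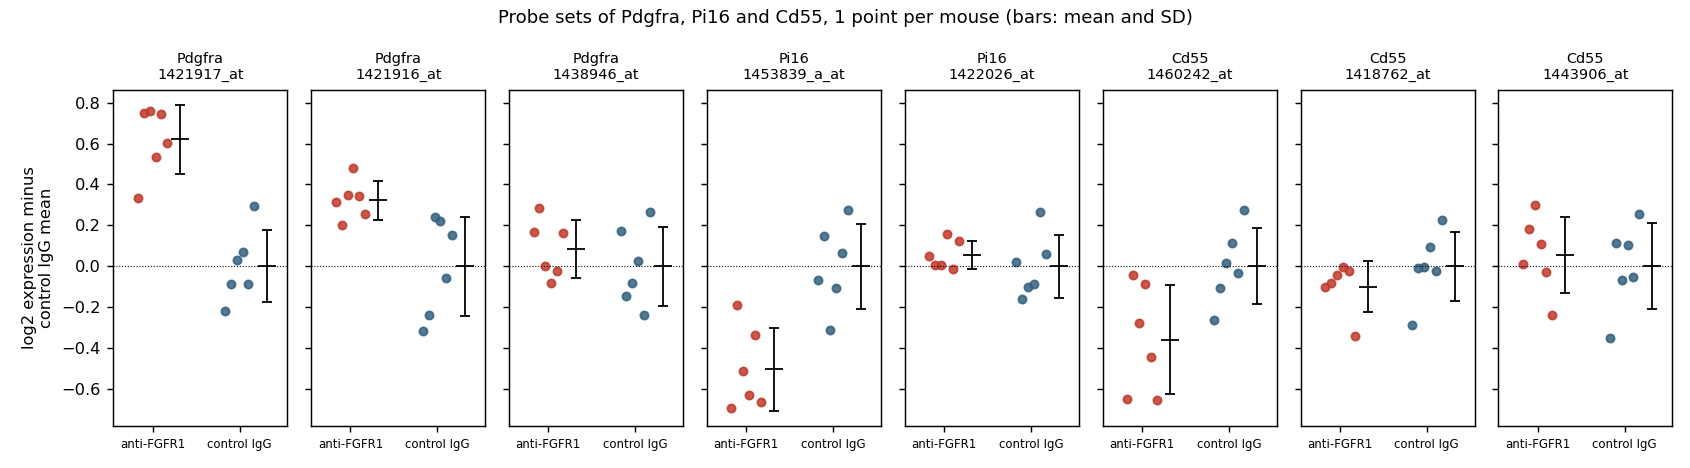
Log2 expression minus the control IgG mean of the same probe set (vertical axis) for the 8 probe sets of Pdgfra, Pi16 and Cd55, with 1 point per mouse, anti-FGFR1 left and control IgG right, and bars for the mean and SD of 6 mice. The brightest probe set of each gene, drawn first, shows a larger shift than the others, 0.62 for Pdgfra, -0.50 for Pi16 and -0.36 for Cd55.

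Dpp4, a surface dipeptidyl peptidase and the best known marker of the interstitial progenitors, gave no call on any of its 4 probe sets. The brightest, 1438279_at, had a lowest, median and highest value of 6.94, 7.17 and 7.37 in anti-FGFR1 mice, against 6.94, 7.12 and 7.38 in control IgG mice. The log2 fold change was 0.01 ± 0.08 (SE, limma adjusted p = 0.962), with a 95% interval of -0.17 to 0.19. The other 3 were dimmer and disagreed in sign, at -0.28 ± 0.15 for 1416697_at, 0.14 ± 0.07 for 1441342_at and 0.36 ± 0.16 for 1459973_x_at (SE, limma adjusted p of 0.219 to 0.322). With the RNA integrity measure as a covariate these values were -0.46, 0.03 and 0.63, and none was called. All 4 had means at or below the median of all probe sets.

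Cd55, decay-accelerating factor, which shields cells from complement and is enriched on interstitial progenitors, was also dim. Its brightest probe set, 1460242_at, had 5.71, 6.01 and 6.32 as lowest, median and highest value in anti-FGFR1 mice, against 6.10, 6.36 and 6.64 in control IgG mice. Of 6 anti-FGFR1 arrays 4 lay below all controls, and the log2 fold change of -0.36 ± 0.11 (SE) did not pass (limma adjusted p = 0.0857). It passed without anti-FGFR1 replicate 2 or control IgG replicate 1 (limma adjusted p = 0.0488 and 0.0467) and at -0.47 when the macrophage marker mean entered the model (limma adjusted p = 0.0438). It was at -0.27 with the RNA integrity measure as a covariate (limma adjusted p = 0.443) and at -0.29 without the 2 arrays lowest in muscle markers (limma adjusted p = 0.246), and leaving out 1 array took its adjusted p as high as 0.176. The other probe sets, 1418762_at and 1443906_at, differed by -0.10 ± 0.08 and 0.06 ± 0.10 (SE, limma adjusted p = 0.538 and 0.814). Within arrays the brightest moved by -0.42 ± 0.08 relative to 1443906_at (SE, limma adjusted p = 0.0221), a call lost without anti-FGFR1 replicate 3 or control IgG replicate 3.

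Cd34, a sialomucin shared by stromal progenitors, endothelium and blood progenitors, had a single probe set. Its lowest, median and highest value was 8.81, 9.16 and 9.35 in anti-FGFR1 mice, against 9.07, 9.20 and 9.50 in control IgG mice. The groups overlapped and the log2 fold change was -0.12 ± 0.10 (SE, limma adjusted p = 0.539), with a 95% interval of -0.32 to 0.08. It was at -0.27 with the macrophage mean in the model (limma adjusted p = 0.0778) and at -0.08 after another quantile normalization. Endothelial markers were lower in the same arrays, as given below, and their part in this value was not tested.

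Dlk1 encodes preadipocyte factor 1, an inhibitor of adipocyte differentiation that is lost as preadipocytes mature. On its brighter probe set, 1449939_s_at, the lowest, median and highest value was 7.48, 7.56 and 7.96 in anti-FGFR1 mice, against 7.14, 7.40 and 7.80 in control IgG mice. Both of its probe sets were higher without passing, by 0.21 ± 0.11 and, on the dimmer 1442724_at, 0.13 ± 0.07 (SE, limma adjusted p = 0.291 and 0.337). With the RNA integrity measure as a covariate the brighter one was at 0.05 (limma adjusted p = 0.915).

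Zfp423, a zinc finger factor that commits cells to the preadipocyte state and in mouse fat restrains the brown programme, differed by 0.05 ± 0.08 (SE, limma adjusted p = 0.811). Its lowest, median and highest value was 8.67, 8.93 and 9.06 in anti-FGFR1 mice, against 8.69, 8.82 and 9.10 in control IgG mice. The 95% interval was -0.13 to 0.22.

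**Figure D3:**
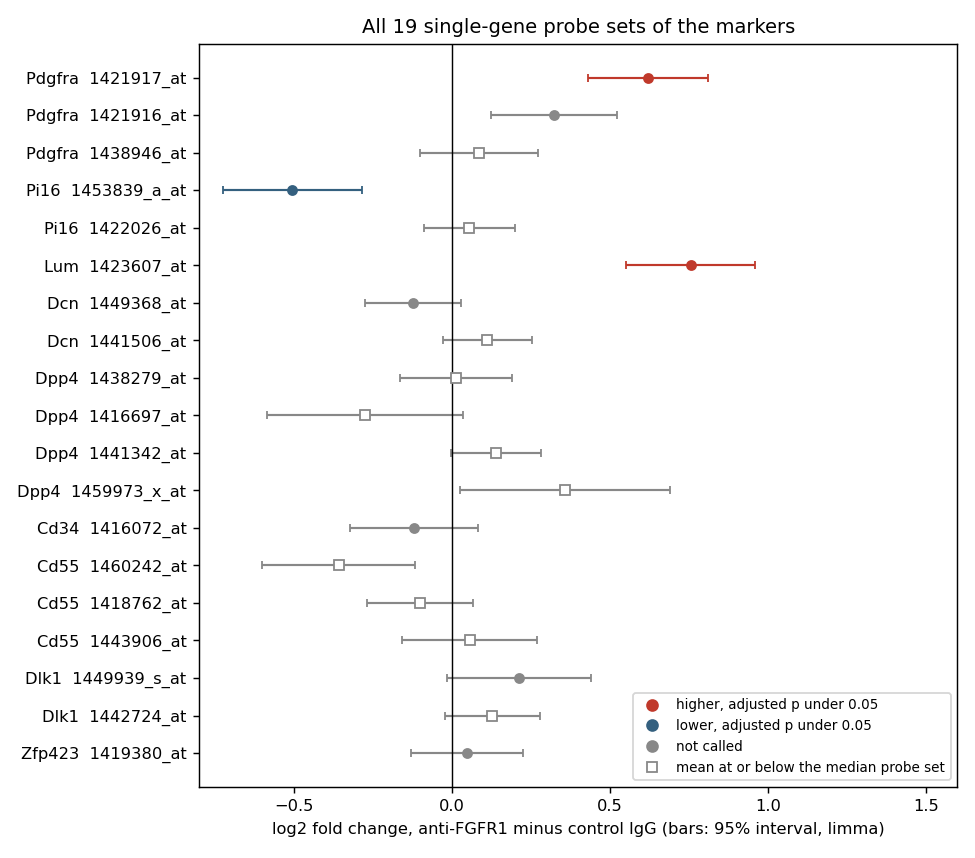
Log2 fold changes (anti-FGFR1 minus control IgG, horizontal axis) of all 19 single-gene probe sets with 95% intervals from limma, coloured by call, and open squares for the 11 whose mean over all arrays is at or below the median of all probe sets. The 3 called probe sets, Pdgfra 1421917_at, Lum 1423607_at and Pi16 1453839_a_at, are among the 8 above that median.

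The 3 called probe sets were all among the 8 with a mean above the median of all probe sets, while of the 11 at or below it 0 passed in limma and 2 had an unadjusted p below 0.05 (Cd55 1460242_at and Dpp4 1459973_x_at). No detection calls were used, so these 11 are dim, not shown to be absent. Of the 16 probe sets that were not called, 12 had a 95% interval within 0.5 of 0 on the log2 scale.

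Other stromal genes were read from lists by role, on the brightest probe set of each gene and with limma over 18193 genes, of which 2.94% were called higher and 5.09% lower (8.03% in all). In the list of multipotent interstitial progenitor genes, which accompany Dpp4 and Pi16 in mouse fat, 0 of 13 measured genes rose and 1 fell, with a median log2 fold change of -0.07 against 0.01 over all genes. The 1 that fell was Limch1, an actomyosin regulator, at 8.82 ± 0.26 in anti-FGFR1 mice and 9.24 ± 0.13 in control IgG mice (SD, n = 6 each, limma adjusted p = 0.0219). This call was lost without anti-FGFR1 replicate 5 (limma adjusted p = 0.0510), without the 2 arrays lowest in muscle markers, and when the RNA integrity measure entered the model (-0.31, limma adjusted p = 0.240). Of its 4 probe sets 2 were called lower, and their mean was at -0.21. Mfap5, a microfibril protein, just missed the threshold at -0.47 ± 0.14 (SE, limma adjusted p = 0.0523). It passed in 5 alternatives, among them at -0.70 with the macrophage mean in the model (limma adjusted p = 0.0038), and without control IgG replicate 1, but was at an adjusted p of 0.255 with the RNA integrity measure in the limma fit. Anxa3, a calcium-dependent membrane-binding protein, was at -0.24 and Pcsk6, a proprotein convertase, at -0.18, and neither passed. Anxa3 was called with the macrophage mean as a covariate (-0.36) and with the replicate block, and lay at -0.11 with the RNA integrity measure.

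Among 14 committed preadipocyte genes, 2 rose and 0 fell, with a median of 0.03. Col15a1, a basement membrane collagen, was at 9.55 ± 0.16 in anti-FGFR1 mice and 8.55 ± 0.47 in control IgG mice, a log2 fold change of 1.00 ± 0.17 (SD then SE, n = 6 each, limma adjusted p = 0.0025). Vcam1, an adhesion molecule also carried by endothelium and macrophages, rose by 0.78 ± 0.11 on its brightest probe set (SE, limma adjusted p = 0.00052) and by 0.40 as the mean of its 3 probe sets. The 2 genes that define the committed state did not pass, Icam1 at -0.02 and Pparg at 0.15, nor did the adipocyte genes Fabp4 (0.02) and Cebpa (-0.01). Icam1 was dim, at 7.16 in anti-FGFR1 mice and 7.18 in control IgG mice. Pparg lay at 12.1 and 11.9 and encodes an adipocyte regulator. In whole brown fat these values therefore do not measure committed preadipocytes alone. Gsn, gelsolin, was lower in all 6 anti-FGFR1 mice than in any control, by 0.17 on the log2 scale, but did not pass (limma adjusted p = 0.0973). Ggt5 was at 0.11 and did not pass.

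The CD142+ stromal genes mark another mouse population, reported to restrain adipogenesis. Of 9 measured, 1 rose, 1 fell and 7 were not called, with a median of -0.13. F3, the gene of CD142 itself, was at 0.15 and did not pass. Mgp, matrix Gla protein, which prevents calcification, was at 12.28 ± 0.17 in anti-FGFR1 mice and 11.62 ± 0.12 in control IgG mice (SD, n = 6 each, limma adjusted p = 0.00020). Igfbp3, an IGF binding protein, was at 9.80 ± 0.10 in anti-FGFR1 mice and 10.38 ± 0.17 in control IgG mice (SD, n = 6 each, limma adjusted p = 0.00034), and both of its probe sets fell by 0.58 on the log2 scale. Neither gene's groups overlapped, which was so for 5.12% of all genes. Gdf10 (-0.22) and Fmo2 (-0.25) did not pass. Gdf10 passed with the macrophage mean (-0.35, limma adjusted p = 0.0038) or the muscle mean (limma adjusted p = 0.0331) in the model and without control IgG replicate 1. Fmo2 passed with the replicate block (limma adjusted p = 0.0216) and without anti-FGFR1 replicate 4. With the RNA integrity measure as a covariate Gdf10 was at -0.15 and Fmo2 at -0.18 (limma adjusted p = 0.432 and 0.447). Leaving out 1 array took their adjusted p in limma as high as 0.147 and 0.191.

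General fibroblast genes, most of them matrix proteins, had the highest median of the 5 stromal lists, 0.25. Of 22 measured, 7 rose, 1 fell and 14 did not pass. Those that rose included Col6a2 and Col6a1, chains of microfibrillar collagen VI, at 0.70 ± 0.13 and 0.63 ± 0.15 (SE, limma adjusted p = 0.0040 and 0.0164). Fap, the fibroblast activation protease, rose by 0.60 ± 0.12 and Bgn, the proteoglycan biglycan, by 0.55 ± 0.11 (SE, limma adjusted p = 0.0051 and 0.0059). All 3 probe sets of Bgn were called. Col5a1 rose by 0.52 ± 0.12 (SE, limma adjusted p = 0.0124), but 1 of its 3 probe sets was called and their mean, at 0.39, was not (limma adjusted p = 0.0604). The rise of Loxl1 (0.34), a lysyl oxidase relative that crosslinks elastin, was lost without anti-FGFR1 replicate 3 or 5 or control IgG replicate 2. That of Col3a1 (0.42), a fibrillar collagen chain, held without anti-FGFR1 replicate 1 or control IgG replicate 6 and was lost in the other 10 such fits. The call of Col3a1 was also lost in 5 of 10 other alternatives, among them median centring and the RNA integrity measure as a covariate (limma adjusted p = 0.0545 and 0.0770). Over all probe sets, neither of its 2 was called (limma adjusted p = 0.0523 and 0.0742). Postn, periostin, was 0.31 lower on the log2 scale, and its call held without anti-FGFR1 replicate 3 or 5 or control IgG replicate 1 or 4 and was lost in the other 8. It was also lost with the RNA integrity measure as a covariate (-0.21, limma adjusted p = 0.317) and without the 2 arrays lowest in muscle markers (limma adjusted p = 0.084), and lay at -0.47 with the macrophage mean. Beside biglycan and lumican, the related proteoglycans Fmod, Ogn and Prelp were at -0.06, -0.02 and 0.08 and did not pass. Fmod, Ogn and Prelp, like Icam1, Pparg, Fabp4, Cebpa, F3 and Pdgfrb, are named for their role and not by the rule for named genes. Col6a1, Loxl1, Col3a1, Postn and Kit were added after their values were seen because they were called.

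Transcription factors and regulators of mesenchymal and preadipocyte identity had 21 members measured, of which 0 rose, 2 fell and 19 did not pass, with a median of -0.07. These counts rest on the brightest probe set of each gene. Of the 3 probe sets of Ebf2, 2 that are not its brightest were called higher, as given under other observations. Prrx1, a homeobox factor of limb and adipose mesenchyme, had a lowest, median and highest value of 8.07, 8.24 and 8.30 in anti-FGFR1 mice, against 8.59, 8.90 and 9.06 in control IgG mice. The groups did not overlap and the log2 fold change was -0.65 ± 0.07 (SE, limma adjusted p = 0.00011). Of its 6 probe sets 3 were called lower and the other 3 were not called, and their mean was at -0.28. Osr1, a zinc finger factor of connective tissue progenitors in mouse embryos, was 0.23 lower on that scale with no overlap between groups (limma adjusted p = 0.0123), a call lost without the 2 arrays lowest in muscle markers (-0.21, limma adjusted p = 0.0610). Twist2 (-0.22) and Ccn5 (-0.31) did not pass. Twist2 passed after the filter on dim probe sets and without anti-FGFR1 replicate 3 or control IgG replicate 3 or 6. It lay at -0.21 with the RNA integrity measure and at -0.15 with the macrophage mean in the model (limma adjusted p = 0.240 and 0.212). Ccn5 passed without anti-FGFR1 replicate 4, and lay at -0.15 with the RNA integrity measure as a covariate.

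**Figure D4:**
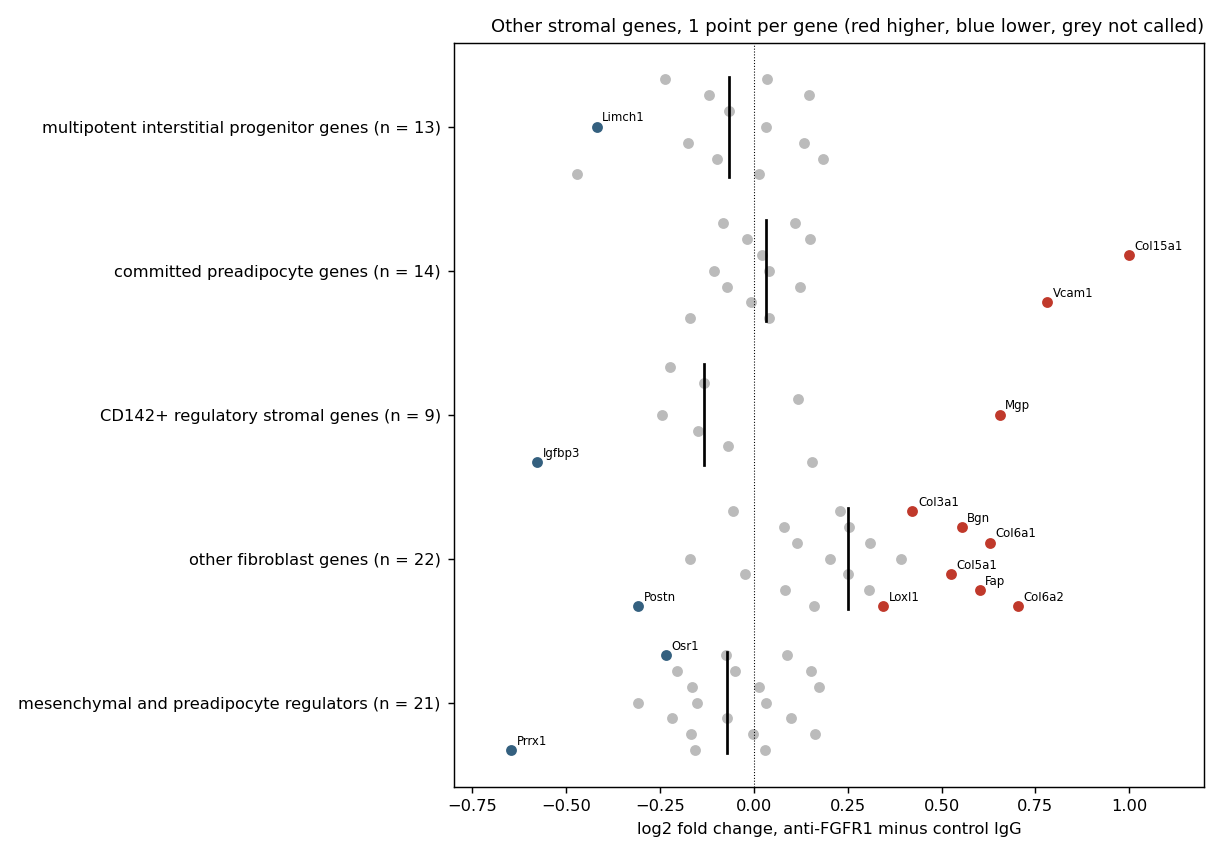
Log2 fold changes (anti-FGFR1 minus control IgG, horizontal axis) of single genes in the 5 stromal lists, with 1 point per gene on its brightest probe set and a vertical bar for the list's median. The fibroblast list lies furthest to the right, with 7 of 22 genes called higher and a median of 0.25, while the 4 other medians lie between -0.13 and 0.03.

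Some markers of other cell types also moved in the same arrays. Over all genes 2.94% were called higher and 5.09% lower. Endothelial genes were lower, with 8 of 14 called lower and 0 higher, a median of -0.28 and list means of 9.22 to 9.45 in anti-FGFR1 mice and 9.48 to 9.71 in control IgG mice. Pecam1 fell by 0.52 ± 0.06 and Plvap by 0.37 ± 0.07 on the log2 scale (SE, limma adjusted p = 0.00013 and 0.0055). Smooth muscle and pericyte genes were lower too, with 6 of 12 called lower, a median of -0.25 and list means of 9.69 to 9.88 in anti-FGFR1 mice and 9.95 to 10.1 in control IgG mice. Acta2 and Myh11, smooth muscle contractile genes, fell by 0.57 ± 0.05 and 0.52 ± 0.05 on the log2 scale (SE, limma adjusted p = 5.0e-05 and 7.1e-05). Pdgfrb, the beta receptor for platelet-derived growth factor and a pericyte marker, was at 0.01 ± 0.08 (SE, limma adjusted p = 0.967). Of 12 macrophage genes 2 were called higher, Adgre1 (0.63) and Csf1r (0.37), and all 12 had log2 fold changes above 0 with a median of 0.19, but the list means overlapped, at 9.90 to 10.3 in anti-FGFR1 mice and 9.68 to 10.3 in control IgG mice.

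With the macrophage marker mean as a covariate, Lum was at 0.59 ± 0.09 and Pdgfra at 0.46 ± 0.08 (SE, limma adjusted p = 0.0013 and 0.0034), and Pi16 at -0.54 ± 0.12 (SE, limma adjusted p = 0.0201). Under the same covariate Col6a2 was at 0.41, Fap at 0.36, Bgn at 0.33, Col6a1 at 0.31 and Col5a1 at 0.27, still called, while Loxl1 (0.21) and Col3a1 (0.17) lost their calls. Without the 2 arrays lowest in skeletal muscle markers, Lum was at 0.79, Pdgfra at 0.65 and Pi16 at -0.48, all called. With the skeletal muscle marker mean as a covariate they were at 0.72, 0.59 and -0.53, also called. With the RNA integrity measure as a covariate the values were 0.75, 0.67 and -0.60, again called. The alternatives that rest on marker lists were chosen after the data were seen.

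Among the remaining lists, T cell and B cell genes had a median log2 fold change of 0.13 each, granulocyte and mast cell genes 0.14, mesothelial and red blood cell genes 0.05 each and adipocyte genes 0.08. These lists are short, and over all genes 8.03% were called. T cell list means were 6.70 to 6.87 in anti-FGFR1 mice and 6.57 to 6.81 in control IgG mice, and limma called 0 of 8 genes, of which 2 had an unadjusted p below 0.05. The B cell list had 2 of 7 called higher, Ms4a1 (0.22) and Ighm (0.68). Its list means were 7.24 to 7.48 in anti-FGFR1 mice and 7.05 to 7.24 in control IgG mice. Of the 11 probe sets of Ighm 2 were called, and the rest lay between -0.07 and 0.15. The second probe set of Ms4a1 was at -0.01 and was not called. Of 10 granulocyte and mast cell genes 2 rose, Cma1 (0.29) and Cpa3 (0.39), and 1 fell, Kit (-0.51). The dimmer probe set of Kit was at -0.08 and was not called. The list means were 7.07 to 7.32 in anti-FGFR1 mice and 6.95 to 7.18 in control IgG mice. Mesothelial genes, with Krt19 (0.31) the only call among 8, lay at 6.33 to 6.48 in anti-FGFR1 mice and 6.16 to 6.45 in control IgG mice. Of 11 adipocyte genes 2 rose and 1 fell, with Retn (0.69) and Lep (-0.56) smallest in p, and list means of 12.7 to 12.9 in anti-FGFR1 mice and 12.6 to 12.8 in control IgG mice. Of 12 skeletal muscle genes limma called 0, all 12 were below 0 with a median of -0.71, and 0 had an unadjusted p below 0.05. Anti-FGFR1 replicate 5 had a list mean of 7.07. The other anti-FGFR1 arrays lay at 10.6 to 11.7, within the control IgG range of 9.67 to 11.9. The 3 red blood cell genes measured gave 1 call, Alas2 (-0.41), with list means of 7.22 to 7.42 in anti-FGFR1 mice and 7.25 to 7.57 in control IgG mice. The part of these cell types in the changes of Lum, Pdgfra and Pi16 was not tested beyond the 2 marker means above.

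**Figure D5:**
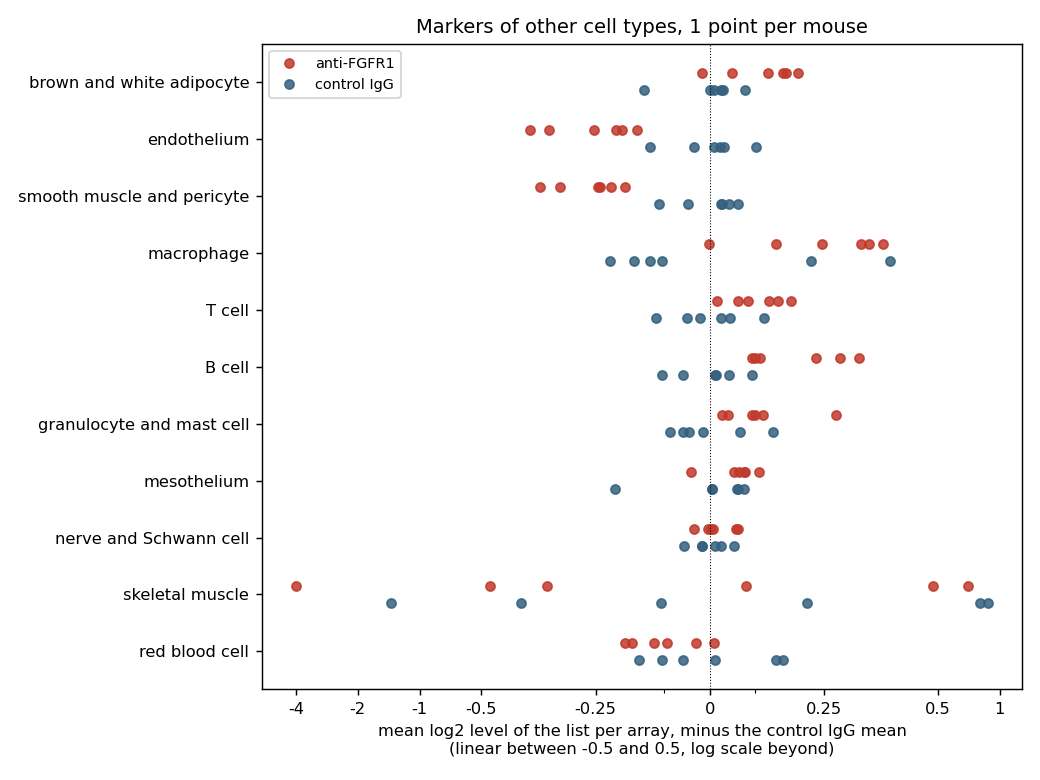
Mean log2 level of each marker list per array minus the control IgG mean (horizontal axis, linear within 0.5 of 0 and logarithmic beyond), with 1 point per mouse, anti-FGFR1 above control IgG in each row. Endothelial and smooth muscle lists separate the groups downward, macrophage lists overlap, and skeletal muscle spreads widely in both groups.

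Genes that varied like the called markers within groups were found from deviations from the group mean over the 12 arrays, among 9095 or 9096 brighter genes, so that group means did not enter. Pdgfra was most like Samd1, the collagen gene Col14a1 and the collagen receptor Ddr2 (Pearson r of 0.955, 0.946 and 0.945, Spearman rho of 0.888, 0.972 and 0.930). Without the 2 arrays where Pdgfra deviated most, r was 0.893, 0.886 and 0.907. These 3 genes did not pass the test of treatment, with log2 fold changes of -0.05, 0.25 and -0.02. Lum was most like Hdgf, Ntpcr and Tlr7 (r of 0.936, 0.933 and 0.928, rho of 0.923, 0.853 and 0.797, and r of 0.918, 0.848 and 0.828 without 2 arrays). Their log2 fold changes were -0.12, 0.03 and 0.09, and none passed the test of treatment. Pi16 was most like Ldb2, Ift43 and Eogt, less closely (r of 0.804, 0.800 and 0.785, rho of 0.769, 0.804 and 0.748, and r of 0.796, 0.699 and 0.626 without 2 arrays). Ldb2 and Ift43 fell with Pi16, by 0.32 and 0.19 in log2 units (adjusted p = 0.0026 and 0.0341 in limma), while Eogt, at -0.11, did not pass (limma adjusted p = 0.171). These are the highest of all these correlations over arrays that share 1 normalization, and no test was made of them.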

How the data were processed

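RNA of brown adipose tissue from 12 mice was hybridised to one-colour Affymetrix arrays with biotin label. The table deposited by the authors gives log2 expression of 45101 probe sets on each array. RMA and limma were used by the authors, per the submitters' processing notes, with versions not given in the sources used here. RMA corrects background, normalizes arrays together and summarises probes, which pulls changes of dim probe sets toward 0. Which arrays were normalized together and the genome build are not given in the sources used here. Arrays give no counts, and their number limits the precision.

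Groups came from sample titles, and the labels state 6 mice per group. The 64 control probe sets were left out. The platform's annotation of its probes supplied gene names, with 34945 probe sets for 1 gene, 932 for several and 9160 for none, and symbols updated through Entrez identifiers to RefSeq genes of GRCm38.p6 for 34741. A probe set shared by Cd55 and Cd55b was left out. Values were used as deposited and tested with lmFit and eBayes (limma 3.58.1, R 4.3.3), two-sided, with no covariates and Benjamini-Hochberg adjustment over all features. Positive differences mean higher in anti-FGFR1 mice. The code was tested on simulated data.

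Named genes were all probe sets of the markers, up to 4 genes of smallest p per stromal list with all called ones counted, up to 2 per other list, and the 3 genes most like each called marker. The markers and lists were chosen with earlier results of these data known. Same-numbered animals share only a number, so calls gained with the replicate block rest on a grouping that the labels do not give. The alternatives were another quantile normalization, median centring, the 3' to 5' difference or the replicate block in the model, a filter on dim probe sets, an intensity trend, only single-gene probe sets, the mean of a gene's probe sets, and leaving out each array. Alternatives added after the data were seen used the muscle or macrophage marker mean as a covariate, or left out the 2 arrays lowest in muscle markers.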

Additional observations from a re-analysis of the deposited data

Results flagged for a closer look

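Of 38 sets of 6 values, 19 probe sets in each of both groups, 1 held an array far from the others. The dim Cd55 probe set 1418762_at was lowest on anti-FGFR1 replicate 6, at 5.69, where the next lowest of its group was 5.93. Chance flags about 1 in 20 such sets, and no call rests on this probe set.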

How the results depend on the processing

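The calls of Lum 1423607_at, Pdgfra 1421917_at and Pi16 1453839_a_at, and their directions, were kept under every alternative run, including all 12 that left out 1 array, with log2 fold changes of 0.59 to 0.82, 0.46 to 0.68 and -0.60 to -0.45. With the 3' to 5' difference as a covariate 910 probe sets and 688 genes were called, against 2398 and 1461, and 1564 probe sets without the 2 arrays lowest in muscle markers. Markers called lower numbered 2, in probe sets and in genes, with the macrophage mean as a covariate, and 1 to 2 when an array was left out. Stromal genes called lower, 5 as reported, were 3 with the 3' to 5' covariate, 2 without the 2 arrays lowest in muscle, 10 with the macrophage mean, and 4 to 7 when an array was left out. With the replicate block they were 8, and 2250 probe sets were called. Same-numbered arrays deviated together at correlations of -0.167 to 0.245 and 2 of 6 matched best with their own number, so the numbers were not taken as pairs.

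Signs turned only for values near 0. With the 3' to 5' covariate Pdgfra 1438946_at was at -0.042 and Dpp4 1438279_at at -0.094, and with the macrophage mean Cd55 1443906_at was at -0.026 and Zfp423 1419380_at at -0.029. When an array was left out, Dpp4 1438279_at ranged from -0.030 to 0.057, Cd55 1443906_at from -0.014 to 0.12 and the difference between the Dlk1 probe sets from -0.011 to 0.18. Called pairs of probe sets ranged from 177 to 416, and the 5' minus 3' difference between groups from -0.054 to -0.036, with exact permutation p of 0.0087 to 0.0736. The cause of these changes was not tested. Dim probe sets fall out under the filter, so 8 of the 19 remained in it.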

Other observations

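Ebf2, a factor that marks brown preadipocytes in mice and is held in check by Zfp423, was not called on its brightest probe set (0.17), whereas its other 2 probe sets rose by 0.35 and 0.37 (limma adjusted p = 0.0079 and 0.0081). Zfp423 was at 0.05 on the same arrays. Ebf2 was singled out after its values were seen.

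Among nerve and Schwann cell genes, S100b, a calcium-binding protein, rose by 0.36 ± 0.05 and Mbp, myelin basic protein, fell by 0.23 ± 0.05 on the log2 scale (SE, limma adjusted p = 0.00066 and 0.0138). The other 4 of 6 measured genes were not called, and the list's median was -0.03. Over all genes 8.03% were called.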
